A study of Mus musculus with 8 samples.

Results

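Among the 42006 mouse probes of an Agilent expression array, 84 probes differed in the same direction between lamin B null and wild-type cells both in embryonic stem cells (ESC) and in the trophectoderm cells (TE) made from them. Of these, 35 were higher and 49 lower in the lamin B null cells. They were selected on the genotype difference itself. A probe was taken where the mean level of the lamin B null arrays differed from that of the wild-type arrays by at least 0.8, with the same sign in both cell types. The 2 arrays of one genotype also had to lie wholly above those of the other within each cell type, and the sample spot had to reach 3 times its local background on both arrays of the higher genotype. The level of a probe is the log2 ratio of the sample signal to the signal of a common reference on the same spot. The median ratio of the array is removed, so that 0 is the median probe of an array. Levels given below as 0.00 belong to spots with a sample signal not well above background, not to a typical expressed probe. Every difference below is on this log2 scale. Because these levels chose the probes, the genotype differences are given as a description and without a test.

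Each array carried RNA of one sample in the green dye (Cy3) against the reference RNA in the red dye (Cy5), and 2 arrays were run in each of 4 groups, lamin B null ESC, wild-type ESC, lamin B null TE and wild-type TE. The ESC were male mouse lines of a mixed C57BL/6;129S4Sv/Jae;129S6/SvEvTac background, derived from crosses of mice heterozygous for Lmnb1 and Lmnb2. The lamin B null lines (LB dKO in the labels) lack both genes, and wild-type and null lines alike carry the randomly integrated construct pCAG-Cdx2ER-IP, selected with puromycin, in which the trophectoderm factor Cdx2 is fused to a receptor domain that 4-hydroxytamoxifen switches on. TE were obtained by giving such ESC lines 4-hydroxytamoxifen with FGF4 and heparin for 2 days in diluted trophoblast stem cell (TS) medium and then keeping them for 6 days in undiluted TS medium. The reference was 2 parts of RNA pooled from 11 mouse cell lines to 1 part of 129 ESC RNA. Per the labels there were 2 independent lines per genotype, without a statement of which array held which line, so the p-values below measure the spread between these arrays. TE came from the same lines as ESC, so the 2 cell types are not independent samples of a genotype, and differences between lines and between genotypes cannot be told apart beyond these lines. For the wild-type TE arrays, title and genotype give the wild type while another label speaks of a knockout, and here title and genotype were followed.

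B-type lamins, the products of Lmnb1 and Lmnb2, are filament proteins that, with A-type lamins, form the meshwork under the inner nuclear membrane. Large stretches of mostly inactive chromatin touch this meshwork, and the series asked whether contact with B-type lamins bears on the activity of the genes there. ESC correspond to the inner cell mass of the blastocyst, while trophectoderm is its outer layer, which later forms trophoblast and placenta. Cdx2 drives the trophectoderm fate.

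The files pair these probes with no gene, transcript or genome position, so the probes are called by their identifiers. For the same reason the loss of Lmnb1 and Lmnb2 RNA, the markers of ESC, TE and feeder fibroblasts, and the gene lists drawn up for pathways were not analysed here. Probes of the deleted genes may themselves be among the 49 lower probes, and whether they are was not tested. All 4 ESC arrays lay on one slide and all 4 TE arrays on another, so that cell type and slide cannot be told apart. On both slides the lamin B null samples took positions 1 and 2 and the wild-type samples positions 3 and 4, so genotype and position cannot be told apart either. The share of probes whose sample signal counted as well above background by the scanner software ran from 47.1% to 68.0% per array, and no spot was saturated. The replicates were less alike in wild-type TE than elsewhere. Over the 27359 probes tested below, the SD of the difference between its 2 arrays was 0.86. It was 0.45 to 0.52 in the other groups.

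The only member with a stretch of at least 20 bases in common with the RefSeq promoter windows, which are 300 bases long and end shortly after each gene's start, was Z00076280-1, the probe with the largest average difference. Z00076280-1 is shown because a part of it has such a match, and matches elsewhere in the genome were not looked for. Its bases 24 to 60, in capitals, equal the sense strand of a stretch in the window of the predicted gene Gm46468, at chr14:6666134-6666170 on GRCm38.p6, plus strand. The match spans bases 254 to 290 of the window, near its end and so close to the annotated start site. The first 23 bases were not found in that window, so the match is partial and names the probe only as far as it goes. Of all probes on the array, 826 (1.97%) had a match of this length in some window, against 1 of the 84 members (1.19%).
Z00076280-1: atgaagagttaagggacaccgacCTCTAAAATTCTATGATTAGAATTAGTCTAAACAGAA

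Another 3 of the higher members are built from the same repeated sequence, and no other probe of the array shares a stretch of 14 bases with any of them on either strand. Z00071988-1 and Z00072589-1 hold 27 bases in common, printed in capitals, on the same strand. Z00063710-1 holds, in capitals, 18 bases that are the reverse complement of a stretch of Z00071988-1, and 14 of its bases are the reverse complement of a stretch of Z00072589-1, so it reads the opposite strand from both. Probes that share sequence can bind the same RNA and are not independent members.
Z00071988-1: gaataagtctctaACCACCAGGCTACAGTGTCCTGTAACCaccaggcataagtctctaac
Z00072589-1: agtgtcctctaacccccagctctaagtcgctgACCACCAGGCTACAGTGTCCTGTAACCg
Z00063710-1: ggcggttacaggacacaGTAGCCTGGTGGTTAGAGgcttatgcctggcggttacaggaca

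The selection rule was met in ESC alone by 114 higher probes (0.271%) and 381 lower ones (0.907%), and in TE alone by 286 higher (0.681%) and 132 lower ones (0.314%). Both cell types together left the 35 higher (0.0833%) and 49 lower members (0.117%). With opposite signs, 1 probe was higher in ESC and lower in TE (0.00238%) and 2 were lower in ESC and higher in TE (0.00476%). In ESC the lower probes outnumbered the higher ones before the TE arrays were brought in, and in TE the reverse held. Over all tested probes the genotype difference was shifted in the same sense, with a median of -0.07 in ESC and 0.07 in TE, and 35.6% of tested probes lay above 0 in ESC against 59.8% in TE. Whether these shifts bear on the counts of higher and lower probes was not tested.

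The higher members differed by a median of 1.94 in ESC (0.82 to 8.72) and 1.72 in TE (0.86 to 7.71). With normexp and median centring their medians were 1.26 and 1.14. The lower members differed by a median of -1.50 in ESC (-5.17 to -0.82) and -1.46 in TE (-5.64 to -0.82). With normexp and median centring the medians of the lower members were -1.15 and -1.22. A difference of at least 2 in size in both cell types was seen in 12 higher and 14 lower members, and of at least 1 in 28 of each. The differences of the 2 cell types lay within 0.5 of each other in 31 of 49 lower and 18 of 35 higher members. The difference was the larger in TE for 23 of the 35 higher members and the larger in ESC for 31 of the 49 lower ones. Taking both cell types together, all 4 lamin B null arrays lay above all 4 wild-type arrays for 22 higher members, and below them for 32 lower members. Among all probes the first held for 0.459% and the second for 0.757%; the rule already keeps the genotypes apart within each cell type, so nothing is read from this. In the remaining members the genotypes overlapped once the cell types were mixed.

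Z00076280-1, which carries the Gm46468 stretch, stood at 3.05 and 2.72 in the lamin B null ESC against -6.28 and -5.38 in the wild-type ESC, and 0.54 and 0.02 in the lamin B null TE against -5.35 and -4.62 in the wild-type TE. Its processed sample signal was 15346 and 14948 in the lamin B null ESC and 17 and 27 in the wild-type ESC, where it was not well above background on either array. In TE the signal was 3342 and 2468 without B-type lamins and 59 and 104 with them. The probe was thus bright in both null groups and at or near background in both wild-type groups. Its difference was 8.72 in ESC and 5.26 in TE, the latter a 38.3-fold ratio on this scale, 11.4-fold with normexp and loess and 9.46-fold with normexp and median centring. Against the lowest signals that counted as well above background, the ESC signal was at least 76.5-fold higher in the null cells.

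Z00035687-1 was well above background on all 4 null arrays and on none of the 4 wild-type arrays. Its levels were -0.16 and -0.29 in the lamin B null ESC against -3.74 and -6.11 in the wild-type ESC, and 1.24 and 1.26 in the lamin B null TE against -6.03 and -6.88 in the wild-type TE. The difference was 4.70 in ESC and 7.71 in TE, but the wild-type side has only a bound. As bounds, the null signal was at least 2.25-fold higher in ESC and at least 6.49-fold higher in TE. Z00062579-1 was likewise above background on the null arrays alone, at 2.58 and 2.46 in the lamin B null ESC against 0.00 and -0.88 in the wild-type ESC, and 2.90 and 3.59 in the lamin B null TE against -1.47 and -0.39 in the wild-type TE. Its bounds were at least 2.32-fold in ESC and at least 3.28-fold in TE.

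Z00076367-1 stood at 3.18 and 2.84 in the lamin B null ESC against -4.14 and -2.79 in the wild-type ESC, and 0.35 and 0.44 in the lamin B null TE against -2.71 and -1.83 in the wild-type TE. Neither wild-type ESC array put it well above background, so the level there is a bound, with a null signal at least 23.2-fold higher in ESC and a difference of 2.67 in TE. Across the 8 arrays its levels followed those of Z00076280-1 more closely than those of any other tested probe, with a Pearson correlation of 0.98; the arrays share the same 4 groups, so this describes likeness and is no test. Z00027410-1 read 5.83 and 5.53 in the lamin B null ESC against 1.62 and 1.44 in the wild-type ESC, and 4.80 and 5.08 in the lamin B null TE against 0.59 and 2.59 in the wild-type TE. It was at least 10.7-fold higher in null ESC. Its reference signal was well above background on only 2 of 8 arrays, so that its ratio depends on a dim reference. The scaling behind its bound uses both channels as well.

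Z00071747-1 was well above background on all 8 arrays in both channels, at 3.47 and 3.03 in the lamin B null ESC against 0.01 and 0.33 in the wild-type ESC, and 2.70 and 2.61 in the lamin B null TE against 0.02 and -0.98 in the wild-type TE. Its difference was nearly the same in the 2 cell types, 3.08 and 3.14. Z00012423-1, also measured on all arrays, read 0.98 and 0.57 in the lamin B null ESC against -1.63 and -1.84 in the wild-type ESC, and 1.11 and 1.28 in the lamin B null TE against -1.04 and -1.61 in the wild-type TE, with differences of 2.51 and 2.52. In both probes the lamin B null arrays stood well apart from the wild-type arrays by a like distance in ESC and TE. Z00012780-1 had levels of 0.52 and 0.29 in the lamin B null ESC against -4.50 and -2.65 in the wild-type ESC, and -0.52 and -0.70 in the lamin B null TE against -3.61 and -2.18 in the wild-type TE, and its wild-type arrays were the more scattered. Z00063059-1 read -0.75 and -0.69 in the lamin B null ESC against -3.02 and -2.38 in the wild-type ESC, and 1.06 and 0.67 in the lamin B null TE against -3.58 and -3.10 in the wild-type TE, so the difference was 1.98 in ESC and 4.20 in TE. Z00024225-1 and Z00070225-1 complete the 10 with the largest mean difference, with 2.07 and 3.25 for the former and 2.40 and 2.77 for the latter. For Z00070225-1 part of the difference lay in the reference channel, with a null minus wild-type difference of -1.20 in ESC and -1.73 in TE, and on the sample channel alone its differences were 1.21 and 0.93.

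The lower member with the largest average difference, Z00048585-1, read 0.00 and 0.00 in the lamin B null ESC against 4.08 and 4.82 in the wild-type ESC, and 1.18 and 2.55 in the lamin B null TE against 7.74 and 7.26 in the wild-type TE. Its reference signal was not well above background on any array, and its sample signal was 6 and 7 in null ESC against 269 and 241 in wild-type ESC. The wild-type signal was at least 3.64-fold higher in ESC, and the exact 0.00 of the null arrays comes from substitute values that the scanner software writes into both channels of a dim spot. In TE the sample signal was 19 and 41 in null and 1353 and 1410 in wild-type cells.

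Z00070180-1 was well above background on the 4 wild-type arrays and on none of the 4 null arrays. Its levels were -4.43 and -3.41 in the lamin B null ESC against 1.08 and 1.42 in the wild-type ESC, and -3.53 and -4.09 in the lamin B null TE against -0.18 and 0.40 in the wild-type TE. The wild-type signal was at least 4.55-fold higher in ESC and at least 2.04-fold higher in TE. Its difference was -5.17 in ESC and -3.92 in TE, against -2.32 and -0.99 with normexp and loess. Z00062996-1 showed the same split of arrays, at 0.00 and -0.10 in the lamin B null ESC against 4.31 and 4.03 in the wild-type ESC, and 0.28 and 1.67 in the lamin B null TE against 4.17 and 3.94 in the wild-type TE, with a wild-type signal at least 3.31-fold higher in ESC. Z00070209-1 read 0.00 and 0.95 in the lamin B null ESC against 4.87 and 5.56 in the wild-type ESC, and 1.94 and 4.00 in the lamin B null TE against 5.08 and 4.55 in the wild-type TE. It was above background on 1 of the 4 null arrays, in TE, and the wild-type ESC signal was at least 7.51-fold higher. The reference channel of both Z00062996-1 and Z00070209-1 was well above background on only 2 arrays.

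Z00070082-1 was measured well above background on all 8 arrays, at -4.53 and -3.82 in the lamin B null ESC against 0.19 and 0.62 in the wild-type ESC, and -3.71 and -2.87 in the lamin B null TE against 0.50 and 0.40 in the wild-type TE. Its sample signal was 48 and 96 in null against 1019 and 1360 in wild-type ESC and 109 and 255 against 2286 and 2643 in TE. The differences were -4.58 and -3.74, and the wild-type level averaged 0.40 in ESC and 0.45 in TE. Z00036741-1 stood at 1.16 and 1.48 in the lamin B null ESC against 5.19 and 5.17 in the wild-type ESC, and 1.55 and 1.45 in the lamin B null TE against 5.64 and 4.70 in the wild-type TE, with a reference well above background on 3 arrays.

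Z00075211-1, Z00006024-1 and Z00055511-1 had nearly the same level as each other on every array. Z00075211-1 read -4.74 and -3.68 in the lamin B null ESC against -0.27 and 0.35 in the wild-type ESC, and -4.89 and -4.47 in the lamin B null TE against -1.15 and -0.95 in the wild-type TE. Z00006024-1 lay within 0.48 of it and Z00055511-1 within 0.41 of it on every array, with correlations of 0.998 and 0.999 over the 8 arrays, and no stretch of 12 bases in common. The differences were -4.25, -4.36 and -4.04 in ESC, in that order, and -3.63, -3.48 and -3.41 in TE. The tenth of the largest lower members, Z00056538-1, begins with the 12 bases that end Z00035722-1, so that the 2 probes overlap end to end. Z00056538-1 read -3.44 and -3.01 in the lamin B null ESC against 0.22 and 0.57 in the wild-type ESC, and -4.74 and -4.56 in the lamin B null TE against -1.89 and -2.25 in the wild-type TE, and Z00035722-1 followed it over the arrays with a correlation of 0.998 and differences of -3.02 and -1.88. Such groups count a single transcript more than once where the probes lie on one RNA, which these files do not state.

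Further lower members were measured on all arrays with differences of more than 2 in both cell types. Z00029530-1 differed by -2.67 in ESC and -3.10 in TE, Z00059237-1 by -3.07 and -2.55, Z00056200-1 by -2.81 and -2.58, and Z00029207-1 by -2.15 and -2.62. One spot of Z00056200-1 was marked as an outlier by the scanner software, and the probe is left out of the tests below. At the other end, Z00056777-1 and Z00074325-1 never differed by more than 0.33 from each other on an array, and had differences of -1.31 and -1.42 in ESC and of -0.84 and -0.88 in TE. Just inside the threshold lay Z00072374-1 (0.82 and 1.65), Z00036113-1 (-0.82 and -1.46) and Z00050361-1 (-1.15 and -0.82). Just outside it lay Z00042067-1 (0.79 in ESC and 0.85 in TE), Z00073930-1 (1.23 and 0.76) and Z00076114-1 (-1.02 and -0.75).

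The repeat-bearing probes were well above background on all 8 arrays. Z00063710-1 read -0.30 and -0.19 in the lamin B null ESC against -1.95 and -2.73 in the wild-type ESC, and -1.39 and -0.38 in the lamin B null TE against -3.33 and -4.45 in the wild-type TE. Z00071988-1 read -0.43 and -0.39 in the lamin B null ESC against -1.24 and -1.93 in the wild-type ESC, and -2.24 and -1.99 in the lamin B null TE against -3.20 and -4.53 in the wild-type TE. Z00072589-1 read -0.43 and -0.52 in the lamin B null ESC against -1.31 and -1.93 in the wild-type ESC, and -2.40 and -2.13 in the lamin B null TE against -3.02 and -4.40 in the wild-type TE. The pair on the same strand stayed within 0.19 of each other on every array (correlation 0.997 over 8 arrays), and Z00063710-1, on the other strand, was correlated with them at 0.87 and 0.84. The genotype difference was 2.09, 1.18 and 1.15 in ESC and 3.00, 1.75 and 1.44 in TE, the larger in TE for each.

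The ratio depends on both dyes, and the reference RNA was the same on every array, so a genotype difference in the reference channel is not one of the samples. On the sample channel alone (log2 processed signal, quantile normalized), 34 of the 35 higher members had the same sign in ESC and 34 in TE, as did 49 of 49 lower members in both. Differences of at least 0.8 were seen in 32 higher members in ESC and 34 in TE, and in 40 and 48 of the lower ones. The median reference difference was 0.18 in ESC and 0.20 in TE for the higher members and 0.02 and 0.03 for the lower ones. It reached 0.8 in size in 4 of 35 higher and 5 of 49 lower members in ESC. In TE this held for 3 of 35 and 5 of 49. Among all probes, dim ones included, it was so for 23.7% in ESC and 6.85% in TE. The members had to reach a sample signal, so these are not like sets and nothing is read from the comparison.

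The exception was Z00036750-1. Its ratio was higher in null cells by 0.95 in ESC and 0.86 in TE, but its sample signal was lower there, with differences of -1.06 and -1.04. The reference signal was 1850 and 7279 on the null and 8051 and 15492 on the wild-type ESC arrays, and 3804 and 16773 against 25189 and 28708 on the TE arrays. Its membership thus rested on the reference channel.

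The members had a median GC content of 41.7% both among higher (21.7% to 63.3%) and lower ones (31.7% to 71.7%), against 45.0% over the tested probes. The median reference signal was 731 for the higher and 1703 for the lower members, against 838 over the tested probes. Of the higher members 24 of 35 passed the background test of the sample channel on all 8 arrays, and of the lower members 43 of 49; the share over all tested probes was 68.7%. The rule asks for signal only in the higher genotype, so these shares are a description.

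The rule did not use the change from ESC to TE. It did ask for signal in both cell types in the higher genotype, which the tested probes at large need not have. The change was tested with limma over all 8 arrays, with Benjamini-Hochberg adjustment over 27359 probes. Their sample signal passed the scanner software's test of being well above background on every array of 1 or more groups. All 35 higher members and 48 of the 49 lower ones were tested. In bulk RNA, fewer cells of a type and less RNA per cell cannot be told apart. In wild-type cells 42 of 83 members (50.6%) were called, 18 higher and 24 lower in TE, where 48.8% of all tested probes were called (25.2% higher, 23.6% lower). Without the first wild-type ESC array fewer calls were made in wild-type cells, both among the members and over all tested probes. In lamin B null cells 39 of 83 (47.0%) were called, 20 higher and 19 lower in TE, against 51.1% of all tested probes (29.1% higher, 22.0% lower). Both shares of members lay near those of all tested probes. Their median change from ESC to TE was -0.06 in wild-type and -0.10 in null cells, against 0.07 and 0.18 over all tested probes.

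The split between higher and lower calls depended on the scaling. With normexp background correction and median centring, 38.2% of the 8472 probes called in wild-type cells were higher in TE, against 51.6% of the 13356 here. In null cells 35.0% of 7799 were higher, against 57.0% of 13973. Under that scaling 9 members were called higher and 25 lower in wild-type cells, and 5 and 21 in null cells. The median change over tested probes was then -0.09 in wild-type and -0.05 in null cells.

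Among the higher members, 15 of 35 were called in wild-type cells (5 higher and 10 lower in TE) and 17 in null cells (6 and 11). Among the lower members, 27 of 48 were called in wild-type cells (13 and 14) and 22 in null cells (14 and 8). Both genotypes were called higher in TE for 3 higher and 12 lower members (23.2% of all tested probes), and lower in TE for 7 and 8 (20.1% of all tested). Neither was called for 14 higher and 19 lower members (43.4% of all tested). Z00070615-1 was called higher in wild-type TE and lower in null TE, as 2 of all tested probes were called in opposite directions (0.00731%). By the arrays alone, with no test, ESC and TE did not overlap in either genotype and lay in opposite order in 5 members, against 1.17% of all probes and 0.512% of the tested ones. The probes named next were chosen after their values were seen, as members with a change of at least 3 in size in both genotypes.

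The largest fall in wild-type cells was that of Z00024225-1, with levels of 5.58 and 4.32 in the lamin B null ESC against 3.27 and 2.48 in the wild-type ESC, and 0.75 and 0.75 in the lamin B null TE against -2.62 and -2.38 in the wild-type TE. The limma change from ESC to TE was -5.38 (SE 0.44, adjusted p = 4.4e-05) in wild-type cells and -4.20 (SE 0.44, adjusted p = 0.00012) in null cells. ESC levels lay far above TE levels in each genotype, and within each cell type the null arrays stayed above the wild-type ones. Z00005148-1 fell by 5.12 in wild-type cells (limma adjusted p = 3.1e-05) and by 4.51 in null cells (adjusted p = 4.9e-05), and Z00078186-1 changed by -4.27 (adjusted p = 4.9e-05) and -3.80 (adjusted p = 7.6e-05). Both are higher members, at 0.83 and 1.24 in ESC. Z00026990-1, another higher member, rose by 3.42 and 3.43 in wild-type and null cells (limma adjusted p = 0.0014 and 0.0013).

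Of the lower members, Z00074319-1 read -3.40 and -3.25 in the lamin B null ESC against -2.76 and -1.90 in the wild-type ESC, and 0.73 and 0.88 in the lamin B null TE against 1.67 and 1.64 in the wild-type TE. It rose by 3.99 in wild-type and 4.13 in null cells (limma adjusted p = 4.5e-05 and 3.4e-05), the largest rise among the members. Z00030389-1 rose by 3.62 and 3.85 (limma adjusted p = 6.4e-05 and 4.5e-05). Z00003648-1 changed by -3.68 and -3.41 (limma adjusted p = 0.00031 and 0.00043). In each of these probes a change with differentiation of several log2 units went with a genotype difference of between 0.85 and 1.56 in size, present before and after it.

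The repeat-bearing probes fell from ESC to TE in wild-type cells, and 2 of them in null cells. The change was -1.55 (SE 0.48, adjusted p = 0.025) in wild-type and -0.64 (SE 0.48, adjusted p = 0.29) in null cells for Z00063710-1 in the limma fit, so the null change did not pass the test. For Z00071988-1 it was -2.28 (SE 0.44, adjusted p = 0.0029) and -1.71 (SE 0.44, adjusted p = 0.011), and for Z00072589-1 -2.09 (SE 0.44, adjusted p = 0.0047) and -1.79 (SE 0.44, adjusted p = 0.0093), by limma. Without the first wild-type ESC array the wild-type call of Z00063710-1 was lost (change -1.16, limma adjusted p = 0.17), as was that of Z00072589-1 (-1.78, limma adjusted p = 0.052). Without the second wild-type TE array Z00063710-1 was lost again (-0.99, limma adjusted p = 0.10), and without the first null TE array the null call of Z00071988-1 was (-1.59, limma adjusted p = 0.054). With no filter on dim probes the null calls of Z00071988-1 and Z00072589-1 were lost as well (limma adjusted p = 0.061 and 0.056), as was the wild-type call of Z00063710-1 (0.11), each at the same change, since only the set of probes fitted differed. With normexp and loess the wild-type change of Z00063710-1 was -1.10 (limma adjusted p = 0.071).

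Of the probes with the largest genotype differences, Z00076280-1 changed by 0.85 (SE 0.40, adjusted p = 0.11) from wild-type ESC to TE and by -2.61 (SE 0.40, adjusted p = 0.00085) in null cells in the limma fit. Z00076367-1 changed by 1.19 (SE 0.47, adjusted p = 0.063) and -2.62 (SE 0.47, adjusted p = 0.0019), by limma. Both fell in null cells, and the wild-type changes did not pass the test, at levels near background. Without the first wild-type TE array both wild-type changes were called (1.21, limma adjusted p = 0.033, and 1.63, adjusted p = 0.012). That of Z00076367-1 was also called without the second wild-type ESC array (1.87, limma adjusted p = 0.018) and with the replicate block (1.19, adjusted p = 0.038). In the remaining alternatives the wild-type changes of Z00076280-1 and Z00076367-1 did not pass the test. Z00063059-1 changed by -0.64 (SE 0.33, adjusted p = 0.14) in wild-type cells and 1.58 (SE 0.33, adjusted p = 0.0038) in null cells, by limma. Its null call was lost with normexp and median centring (0.96, limma adjusted p = 0.13). Z00048585-1 rose in wild-type cells, by 3.05 (limma adjusted p = 0.00086). Its null change of 1.86 (adjusted p = 0.0093) rests on substitute values in null ESC and was lost without the second null TE array (1.18, limma adjusted p = 0.067) and with normexp and loess (0.12, limma adjusted p = 0.42).

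For Z00070082-1, Z00036741-1 and Z00071747-1, the limma change passed the test in neither genotype. Their adjusted p-values were 0.93, 0.99 and 0.17 in wild-type and 0.078, 0.69 and 0.21 in null cells, in that order. The null change of Z00070082-1, 0.89, was called with the replicate block (limma adjusted p = 0.039), among probes well above background on all 8 arrays (0.041) and, at 1.31, without the first null TE array (0.042). Without the first wild-type TE array Z00071747-1 was called in wild-type cells (-1.16, limma adjusted p = 0.021), and with normexp and loess Z00036741-1 was (0.66, limma adjusted p = 0.042). In the remaining alternatives none of these changes passed the test. Such p-values do not show that the levels of ESC and TE were equal. For Z00075211-1, Z00006024-1 and Z00055511-1 the wild-type change was -1.09, -1.04 and -1.13 with limma adjusted p = 0.0501, 0.0530 and 0.0555, each just above the threshold of 0.05. All were called, with the same change, with the replicate number as a block (limma adjusted p = 0.0153, 0.0200 and 0.0191). The same held among probes well above background on all 8 arrays (limma adjusted p = 0.0211, 0.0234 and 0.0230). All were also called with normexp and median centring (limma adjusted p = 0.0296, 0.0227 and 0.0124). None was called with no filter on dim probes, so the outcome turned on the setting.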

How the data were processed

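RNA of 4 groups was measured on 8 two-colour arrays. Per the file headers, the authors scanned them with Agilent Feature Extraction 9.5.1.1 (protocol GE2-v5_95_Feb07). The deposited intensity values of both channels are background-subtracted, detrended and dye-normalized, with substitutes for dim spots, and mean spot and background intensity stand beside them. The deposited log10 ratio of red over green and the flags for background, saturation and outliers were used for checks and filters. The deposited value table (25030 features) holds log10 values with column medians of 2.27 to 2.33. They followed each array's green over red log ratio plus the probe's mean reference signal (correlations of 0.9998 to 1.0000), which sets their scale and direction; how the features were chosen and any further centring stay unknown, and the table served as an alternative. The build and aligner for the probes are not given in the sources used here.

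Control spots were left out and spots averaged per probe. From the deposited values, log2 of green over red was computed and each array's median removed. Of 27418 probes well above background on both arrays of a group, 59 with an outlier spot were left out of the tests. limma 3.58.1 (R 4.3.3) fitted 4 group means with 4 residual degrees of freedom, and calls were made at an adjusted p under 0.05. The script was tested on simulated data. The members and lists were chosen with earlier results of these data known. Named probes are the 10 largest mean differences per direction and the 3 nearest the threshold on each side; others are named after their values were seen. Fold bounds set the brighter group's mean sample signal, after normexp, loess and Aquantile, against the lowest signal well above background on the dim arrays, or the dim probe's own where higher; without dye swaps they are open to dye bias. Alternatives were normexp (offset 50) with loess or median centring, the sample channel alone, the deposited table, other filters and thresholds, a replicate block and leaving out each array. The fixed gene lists and markers were not applied, since the probes carry no gene names.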

Additional observations from a re-analysis of the deposited data

Results flagged for a closer look

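In 5 members the arrays of the 2 genotypes moved in opposite directions from ESC to TE, with no overlap between ESC and TE arrays in either genotype. Among all 42006 probes 1.17% did so, and among the tested probes 0.512%, against 5.95% of the members. The difference between the changes was not tested, because the genotype differences chose the members. Z00076280-1 changed by 0.85 in wild-type and -2.61 in lamin B null cells, a difference of -3.46. Z00076367-1 changed by 1.19 and -2.62, a difference of -3.81. Z00070615-1 changed by 0.98 and -0.96, a difference of -1.94, and both changes passed limma's test (adjusted p = 0.019 each), though leaving out any 1 null array ended the null call (changes of -1.05 to -0.87, adjusted p = 0.065 to 0.12), and leaving out the first wild-type ESC or the first wild-type TE array ended the wild-type call (changes of 0.80 and 0.79, adjusted p = 0.074 and 0.092). Over all alternatives its adjusted p ran from 0.015 to 0.43 in wild-type and from 0.0040 to 0.12 in null cells. Z00031554-1 changed by 0.99 and -0.44, a difference of -1.43. Z00063059-1 changed by -0.64 and 1.58, a difference of 2.22. In Z00076280-1 and Z00076367-1 the wild-type ESC signals were not well above background.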

How the results depend on the processing

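The selection rule gave 84 probes as used (35 higher, 49 lower), 63 with normexp and loess (31 and 32), 60 with normexp and median centring (23 and 37), 56 at a smallest difference of 1.0 (28 and 28), 49 from the deposited value table (47 of them members), 394 with no minimum of signal over background, and 80 to 105 without each array in turn. Without the second wild-type ESC array higher probes outnumbered lower ones (47 and 41). Probes called in TE against ESC numbered 10579 to 13323 in wild-type and 9778 to 15368 in null cells without 1 array, and 8472 and 7799 with normexp and median centring. Members called numbered 26 to 40 in wild-type and 26 to 43 in null cells without 1 array; the 26 in wild-type cells were those without the first wild-type ESC array, and the 26 in null cells those without the second null TE array. With the replicate number as a block, 47 members and 14042 probes were called in wild-type and 42 and 14654 in null cells. The replicate differences of ESC and TE groups correlated at -0.004 to 0.043. With 2 arrays per group this cannot decide whether same-numbered ESC and TE arrays held the same line. Those of the 2 genotypes correlated at 0.36 in ESC and 0.62 in TE, so same-numbered null and wild-type arrays deviated together within a cell type. Median genotype differences ranged, without 1 array, over 1.66 to 1.96 (ESC) and 1.57 to 1.96 (TE) in higher members and -1.59 to -1.38 and -1.71 to -1.17 in lower ones. With normexp and median centring the higher members' medians were 1.26 in ESC and 1.14 in TE, and the lower members' -1.15 and -1.22. With normexp and loess the ESC medians were 1.36 and -1.08, and the TE medians 1.35 and -1.12. The deposited table holds only 22 of the 35 higher and 29 of the 49 lower members, so fewer members could be counted from it above. Over those 29 the ESC median was -1.16, which is not a median of the same probes as the -1.50 of all 49 lower members. The cause of these shifts was not tested. Of 1110 recomputed differences of single members 970 moved by less than the spread of their arrays, 137 by more and 3 turned. Those were Z00036750-1 on the sample channel alone (-1.06 in ESC, -1.04 in TE) and Z00012235-1 in TE with normexp and loess (0.017). Normexp with median centring was not part of this count. Under it the TE difference of Z00012235-1 turned as well, to 0.45 from -2.68. Of 968 recomputed changes of named members 871 kept their call, 40 lost and 55 gained one, and 2 turned, those of Z00062996-1 (0.50) and Z00036741-1 (0.66) in wild-type cells with normexp and loess. Without 1 array, the array left in its group is assumed to vary like the other groups. The 2 arrays per group limit the precision of every value, and probes near background have only bounds.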
